A study of Mus musculus with 36 samples.

Results

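Vcp, Nsfl1c, Nploc4, Faf1, Faf2, Ubxn4 and Ubxn7 were examined in ribosome clusters and RNA of the newborn mouse brain. They are 7 of the 16614 genes in the count table, taken by gene name. Vcp was chosen by the peaks of ribosome-protected fragments (RPFs) on its mRNA, many of which recur between libraries, and the other 6 genes encode cofactors of its protein. The number, position and presence of Vcp peaks are therefore given as a description, without a test.

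Vcp is a ring-shaped AAA ATPase that uses ATP to pull ubiquitinated proteins out of membranes, complexes and ribosomes and to unfold them for the proteasome. It is directed to its substrates by cofactors, many of which bind through a UBX domain. Its substrates include proteins of the endoplasmic reticulum (ER) that fail to fold and the unfinished chains on ribosomes that have stalled, and human VCP mutations cause degeneration of muscle, bone and neurons. Nsfl1c, also called p47, serves Vcp in membrane fusion. Nploc4 forms with Ufd1 the adaptor that delivers ubiquitin chains. Faf1 and Ubxn7 are soluble adaptors that bind ubiquitin, and Faf2 and Ubxn4 are ER membrane proteins that take part in the degradation of ER proteins.

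RPFs were sequenced from the pellet of sucrose gradients, which is enriched in RNA granules, and from fraction 5/6, beside RNA-seq of whole brain homogenate. The study saw ribosome clusters in both by electron microscopy, and the rough ER marker ribophorin in the pellet and not in fraction 5/6. It calls it unclear whether the pellet holds only stalled ribosomes of RNA granules. Each preparation pooled 10 brains of postnatal day 5 mice, either WT (C57BL/6) or FMR1 KO mice, which lack FMRP in all cells. In the standard preparation ribosomes were kept in 10 mM MgCl2 and digested with a high nuclease dose, and in the low nuclease preparation in 2.5 mM with less nuclease. The preparations also differed in the temperature of digestion, the RNase I product, how its dose was set and how the digested ribosomes were recovered. The parts of these in a difference between preparations cannot be told apart. The 12 groups (2 genotypes by 2 preparations by pellet, fraction 5/6 and RNA) had 3 libraries each. The 3 RPF libraries of a group were tagged and then pooled before reverse transcription, so a library pool and a group cannot be told apart, and p-values measure only the spread between these libraries. In whole brain, fewer cells of a type and less RNA per cell cannot be told apart.

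Levels are CPM, counts scaled to a common library total, of the counts without Cdk8, a gene that held 36.7 to 63.4% of standard RPF counts and 2.69 to 5.62% of low nuclease RPF counts. Without it the total count was 4284209 to 21274803 in the standard RPF libraries, 22378936 to 60377525 in the low nuclease RPF libraries, and 112240104 to 147207607 and 38505915 to 141497783 in standard and low nuclease RNA-seq. Some libraries stand apart. The library labelled WT fraction 5/6 replicate 3, standard, had 3.17 CPM of Fmr1, the targeted gene, against 68.6 and 100.1 CPM in the other WT libraries of that group and 5.98 to 10.7 CPM in FMR1 KO. In 3 low nuclease RNA-seq libraries (WT replicate 2, FMR1 KO replicates 2 and 3) 10 genes held 82.4 to 85.0% of the counts. The neuronal markers Tubb3 and Map2 stood at 1533 to 2626 and 1681 to 2299 CPM in standard RNA-seq, Snap25 at 449.8 to 617.1 and Syt1 at 102.8 to 140.5 CPM. Markers of other cells overlapped Syt1, among them Aldh1l1 of astrocytes (102 to 134.8 CPM), Mbp of oligodendrocytes (122.5 to 389.4) and Cx3cr1 of microglia (123.1 to 144.3).

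Vcp (ENSMUSG00000028452) lies at chr4:42979963-43000507 on the minus strand (GRCm38), with 17 exons and a coding sequence of 806 codons. Peaks of RPF coverage, called by the authors in each standard library, were matched between libraries when their zeniths, taken as the middle of the peak, lay within 6 nt. Of the Vcp sites, 9 were present in all 6 pellet libraries, and 8 of these also in all 6 fraction 5/6 libraries. The 35 nt centred on the zeniths of 8 of the 9 sites are shown because they are the stretches of mRNA from which RPFs recurred. They are given 5′ to 3′ as in the mRNA, from the GRCm38 genome, with the bases of the downstream exon in capitals where a window crosses an exon junction.
codon 191: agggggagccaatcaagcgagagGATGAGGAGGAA
codon 316: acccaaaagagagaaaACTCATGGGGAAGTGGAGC
codon 399: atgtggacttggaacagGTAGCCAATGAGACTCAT
codon 495: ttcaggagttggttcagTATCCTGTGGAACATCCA
codon 588: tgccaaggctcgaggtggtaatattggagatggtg
codon 668: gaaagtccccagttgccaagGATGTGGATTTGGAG
codon 719: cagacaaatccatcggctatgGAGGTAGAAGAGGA
codon 772: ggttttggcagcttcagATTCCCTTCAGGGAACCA

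In genome coordinates the window at codon 191 spans chr4:42990866-42993171 across the intron between exons 5 and 6, that at codon 316 chr4:42986049-42986161 (exons 8 and 9), that at codon 399 chr4:42984678-42985170 (exons 10 and 11) and that at codon 495 chr4:42983559-42984320 (exons 12 and 13). The window at codon 588 lies within exon 14, at chr4:42983065-42983099. The windows at codons 668, 719 and 772 span chr4:42982672-42982860 (exons 14 and 15), chr4:42980935-42982551 (exons 15 and 16) and chr4:42980617-42980810 (exons 16 and 17). All 9 sites are coding. Between the 6 pellet libraries the zenith of a site moved by 1 to 3.5 nt. Whether the deposited positions count from 0 or from 1 is not given in the sources used here, so each may be off by 1 nt.

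The peak at codon 719 had the highest median over the 6 pellets of the 9 shared sites (192.5 RPFs), with 331, 183 and 171 RPFs at its zenith in WT pellets and 324, 172 and 202 in FMR1 KO pellets. In fraction 5/6 it had 273, 109 and 166 RPFs in the libraries labelled WT, the last in that with little Fmr1, and 121, 282 and 56 in FMR1 KO. The genotypes overlapped with and without that library, and the high and low libraries were those with many or few RPFs on Vcp. The peak at codon 495 had 301, 169 and 173 RPFs in WT pellets and 225, 82 and 189 in FMR1 KO pellets. The peak at codon 191 had 228, 137 and 121 RPFs in WT pellets and 184, 126 and 163 in FMR1 KO pellets. Again the genotypes overlapped. The lowest value in any pellet was at codon 772, with 157, 111 and 83 RPFs in WT pellets and 125, 52 and 102 in FMR1 KO pellets, and it was the site missing from 1 fraction 5/6 library. Median heights over the 6 pellets were 80.5 RPFs at codon 399, 111.0 at codon 588, 140.5 at codon 316 and 142.0 at codon 668. The heights are not scaled between libraries.

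**Figure D1:**
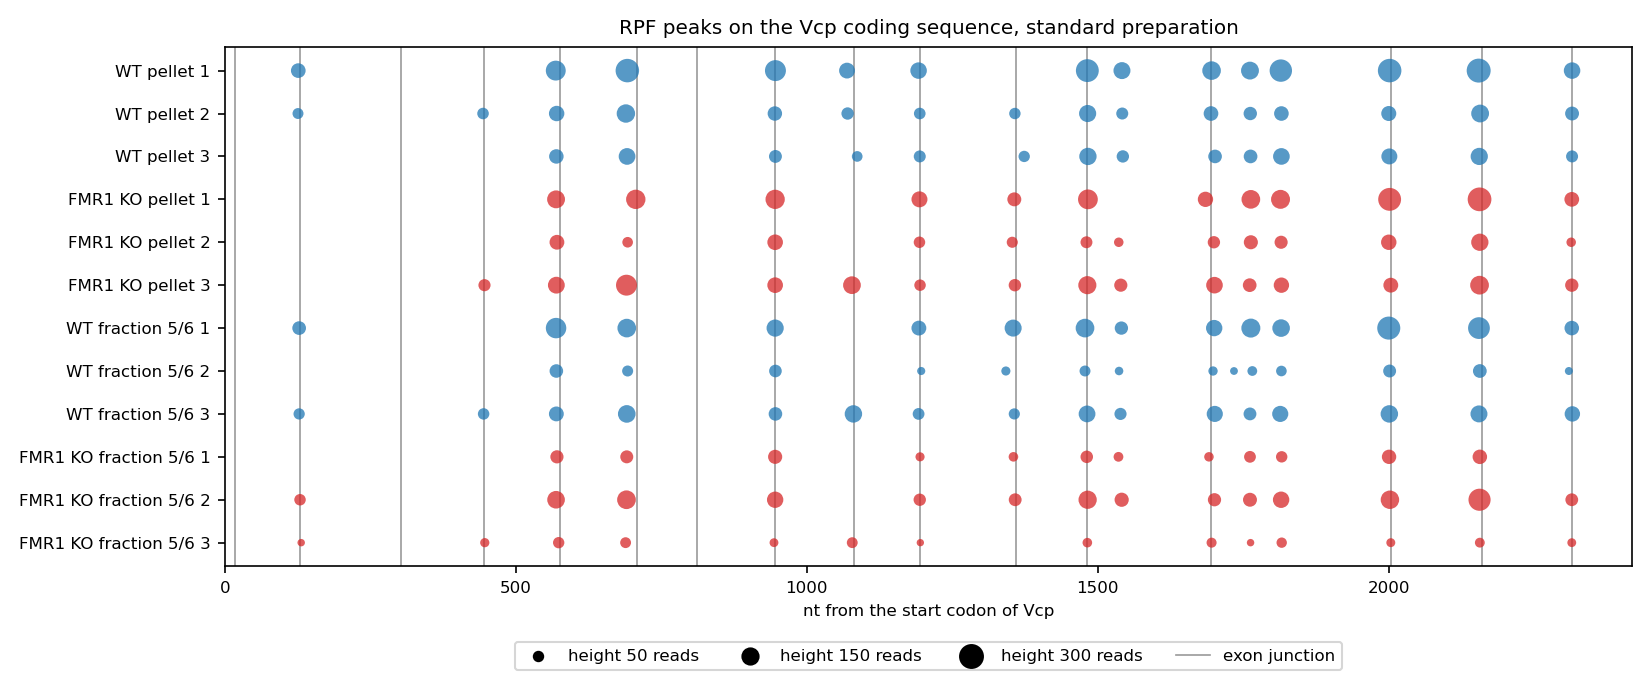
Peaks called along the Vcp coding sequence (x axis, nt from the start codon) in each of the 12 standard libraries (y axis). Each dot is a peak with area proportional to its height in RPFs, and grey lines mark exon junctions. The 9 sites present in all 6 pellets form columns of dots, 7 of them at a junction.

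The sites just outside the requirement of all 6 pellets were at codon 231, in 5 pellet and 6 fraction 5/6 libraries, at codon 567, in 4 and 5, and at codon 453, in 4 and 4. Over all 12 libraries Vcp had 25 sites, all coding, of which 6 were seen in 1 library. The Hsp90 mRNA Hsp90aa1 had 10 sites in all 6 pellets, Vcp had 9, and Eef1a1 and Hspa8 followed with 6 and 5. In all, 240 such sites lay on 160 mRNAs. With a matching distance of 3 nt Vcp had 8 sites in all pellets but 3 in all fraction 5/6 libraries, and with 12 nt it had 9 and 10.

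Shared Vcp sites lay at exon junctions. At 7 of the 9 the zenith was within 6 nt of a junction, with 3 of them (codons 399, 495 and 772) at 0 nt from it, while 8.59% of the Vcp coding sequence is that close. The other 2 were farther away, and of these the site at codon 588 was 67 nt into exon 14. Among Vcp sites of any library 15 of 25 were near a junction, and 13 of the 16 junctions in the coding sequence had a site. The same tendency was present in other mRNAs: without Vcp, 83 of 231 sites shared by all pellets (35.9%) lay within 6 nt of a junction, against 8.06% of their coding sequence. It was weaker over all peaks of a library on transcripts with an annotated coding sequence (9907 to 29646 peaks), of which 8.41 to 10.3% were near a junction against 7.38 to 7.74% of coding sequence. These are counts, with no test, since the sites were picked for recurring. The part in this of how reads that span junctions were aligned or placed on transcripts was not tested.

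The windows held short purine-rich motifs and acidic codons. The letters TGGA or AGGA, searched on the mRNA strand and not on the other, were in 8 of the 9 windows, all but that at codon 772. Of all windows of that length in the Vcp coding sequence 44.0% hold them, and of the windows at sites shared by all pellets in any mRNA 45.4%. Codons for aspartate or glutamate made up 23 of the 99 whole codons in the Vcp windows (23.2%), 6 of them in the window at codon 191, against 16.1% over the whole Vcp coding sequence. Over all shared windows the share was 14.6%. Vcp has a pair of ATPase domains, and the letter pattern of their ATP-binding Walker A loops was found at codons 245 to 252 and 518 to 525. None of the 9 zeniths lay inside these stretches.

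The choice of Vcp used the presence of its sites and not differences in their height between groups. The heights of the sites within an mRNA were compared as log2 of the height relative to the mRNA's mean, with limma, over the mRNAs with at least 3 shared sites. A site missing from any library of the compared groups could not enter, so a site lost in 1 genotype was not tested. Between FMR1 KO and WT pellets 0 of 72 sites on 16 mRNAs passed the threshold of an adjusted p of 0.05 (background 0%), with 6 at an unadjusted p under 0.05, none on Vcp. At the 9 Vcp sites the genotype difference ran from −0.35 to 0.27 on the log2 scale, with adjusted p of 0.621 to 0.957 in limma. Between pellet and fraction 5/6 0 of 34 sites on 8 mRNAs passed (background 0%), with 4 at an unadjusted p under 0.05, 1 of them on Vcp. That site was codon 191, whose relative height was lower in the pellet by a log2 difference of −0.26 (SE 0.114, adjusted p = 0.325 in limma).

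**Figure D2:**
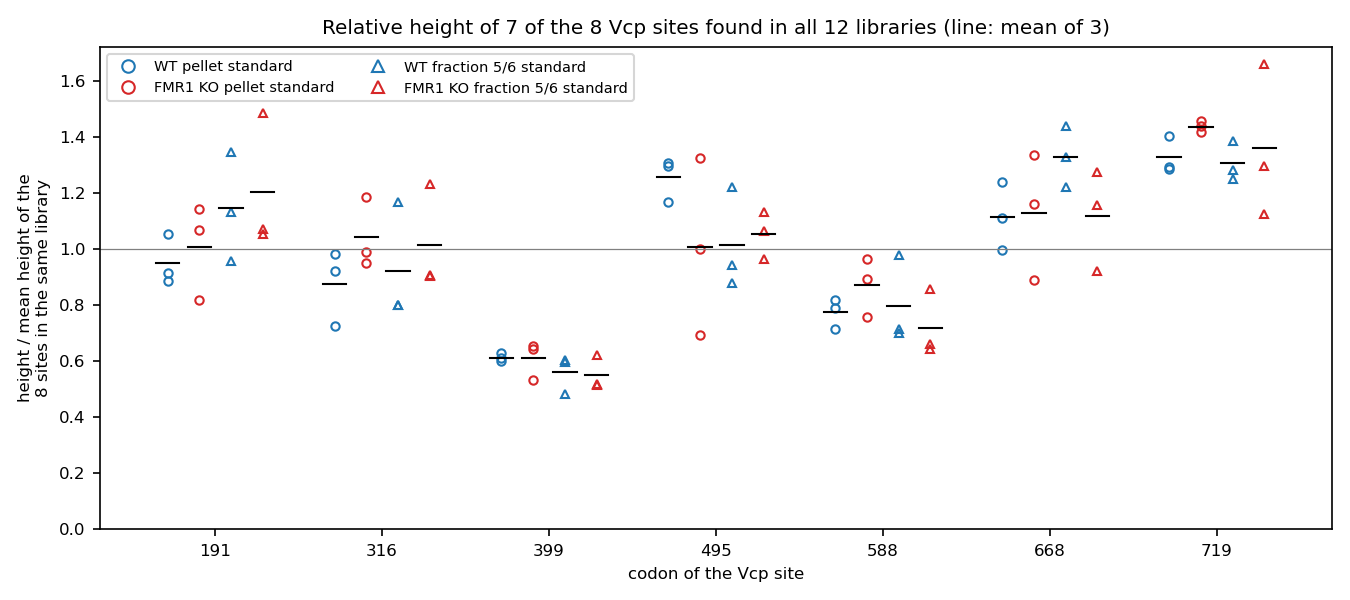
Height of 7 of the 8 Vcp sites found in all 12 standard libraries (x axis, codon), relative to the mean of the 8 sites in that library (y axis). Points are libraries by group and short lines are means of 3 libraries. In every group codon 399 has the lowest mean, and the highest is at codon 719, or at codon 668 in the fraction 5/6 libraries labelled WT, which include that with little Fmr1.

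The cofactor mRNAs other than Nsfl1c and Faf2 had peaks in every library, but none at a site shared by all 6 pellets with zeniths within 6 nt. Vcp had 12 to 16 peaks per pellet library, with heights of 52 to 331 RPFs. Faf1 had 11 to 18 (heights 6 to 45 RPFs), Ubxn7 13 to 24 (3 to 39 RPFs), Ubxn4 8 to 21 (4 to 34 RPFs) and Nploc4 2 to 17 (1 to 28 RPFs). In pellets the number of peaks thus overlapped between Vcp, Faf1 and Ubxn7, while the heights on Vcp lay above those on the cofactors. In fraction 5/6 the range of heights over the libraries was 31 to 306 RPFs on Vcp. It overlapped those on Faf1 (4 to 43 RPFs), Ubxn7 (2 to 33 RPFs), Ubxn4 (2 to 53 RPFs) and Nploc4 (0 to 34 RPFs). The most widely shared sites of Faf1 and Ubxn7 were in 7 of the 12 libraries, that of Ubxn4 in 6 and that of Nploc4 in 4. Of the 95 sites of Faf1, 40 were in 1 library only, and of the 44 of Nploc4, 26 were.

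Nsfl1c had no peak in any of the 12 libraries, with 437 to 1030 RPF counts per pellet and 508 to 1616 per fraction 5/6 library. Nploc4, with 479 to 1206 counts per pellet, had peaks in every library, with a range of counts that overlaps that of Nsfl1c. Faf2, with 142 to 261 counts per pellet, had 1 peak in 1 library. Vcp had 2039 to 5106 counts per pellet, more than every cofactor, and its part in the recurrence of sites was not tested. The cofactor sites were not crowded at junctions. Within 6 nt of a junction lay 5 of 44 Nploc4 sites (11.4% of its coding sequence is as close), 7 of 95 Faf1 sites (12%), 9 of 85 Ubxn4 sites (10.3%) and 7 of 91 Ubxn7 sites (8.84%).

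**Figure D3:**
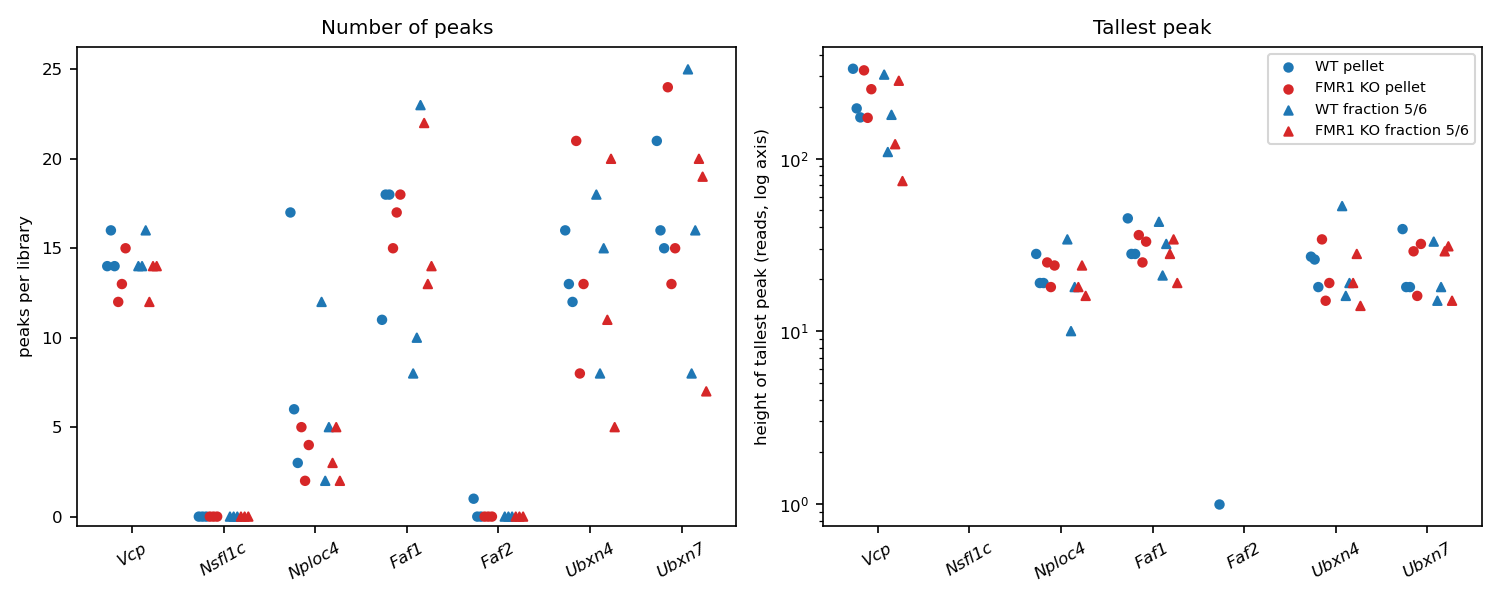
Number of peaks per library (one panel) and height of the tallest peak in RPFs (the other panel, log axis) for the 7 mRNAs in the 12 standard libraries. Vcp stands apart in height and not in number, and Nsfl1c has no peak.

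Vcp mRNA was abundant, with mean levels of 221.9 to 379.6 CPM in the standard groups, highest in RNA-seq. In standard RNA-seq it had 337.4, 404.3 and 397.2 CPM in WT and 383.0, 360.6 and 394.2 CPM in FMR1 KO. In standard pellets it had 240.0, 230.1 and 225.5 CPM in WT (231.9 ± 7.41, SD, n = 3) and 259.6, 162.7 and 256.3 CPM in FMR1 KO (226.2 ± 55.0, SD, n = 3), where replicate 2 was low. The genotypes overlapped in both. In standard fraction 5/6 it had 245.1, 168.9 and 251.8 CPM in the libraries labelled WT and 163.8, 248.8 and 276.4 CPM in FMR1 KO, again overlapping with the pellets. Low nuclease pellets had 256.1, 316.3 and 245.4 CPM in WT and 310.0, 273.9 and 247.0 CPM in FMR1 KO. Low nuclease RNA-seq was uneven, with 560.5, 90.12 and 436.8 CPM in WT and 628.4, 48.77 and 38.86 CPM in FMR1 KO. Its 3 low values are those of the libraries dominated by 10 genes.

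Per kb of coding sequence, Vcp had the highest level of the 7 in WT standard pellets, 93.2 to 99.1 CPM per kb, and was at the 93.5 to 94.7th percentile of protein-coding genes. Ubxn7 (41.2 to 48.8), Nsfl1c (35.7 to 50.0), Faf1 (36.0 to 43.2), Ubxn4 (31.2 to 41.0) and Nploc4 (28.3 to 32.8 CPM per kb) followed, each overlapping its neighbour. Faf2 was lowest, at 8.85 to 9.47 CPM per kb, with no overlap. Per kb of transcript in WT standard RNA-seq the order was Vcp (101.7 to 121.9 CPM per kb), Nsfl1c (71.1 to 86.3), Nploc4 (21.5 to 23.9), Faf1 (16.6 to 16.7), Ubxn7 (14.6 to 16.8), Ubxn4 (13.5 to 15.8) and Faf2 (4.52 to 5.14). Here only Faf1 with Ubxn7 and Ubxn7 with Ubxn4 overlapped. The pellet and RNA orders use different lengths and are not compared with each other.

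**Figure D4:**
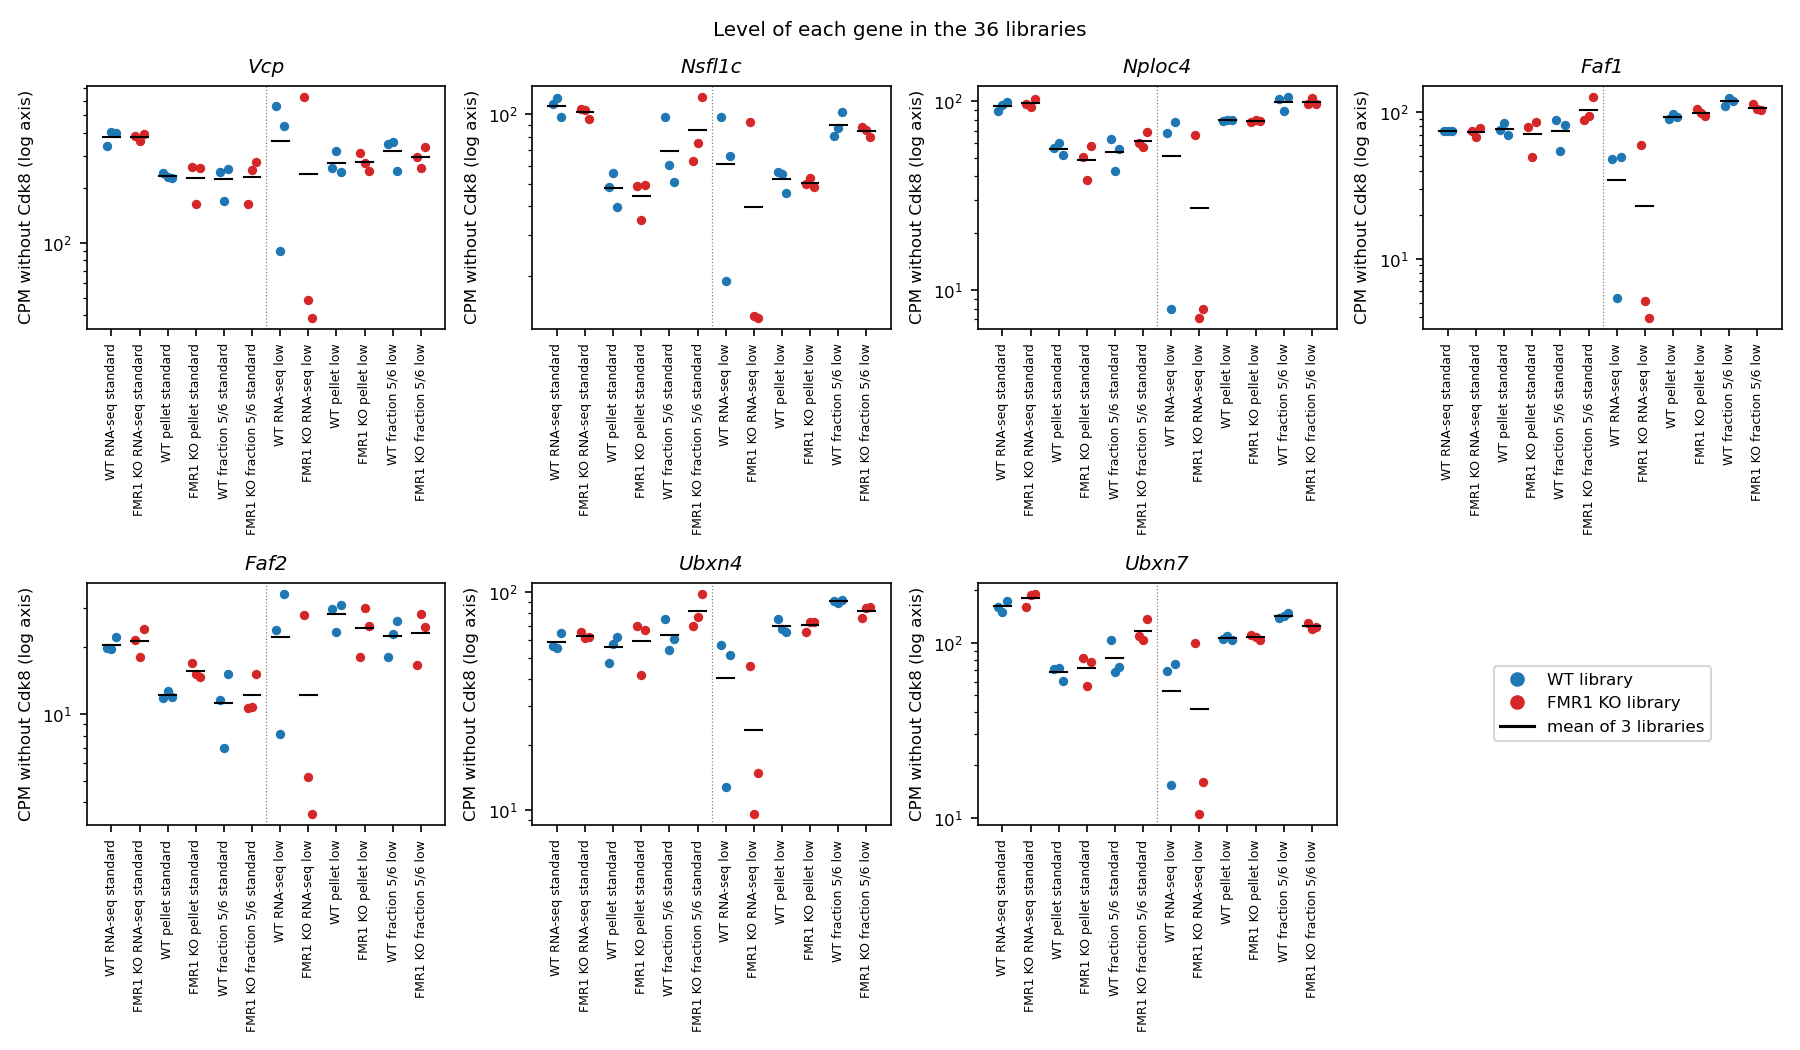
CPM without Cdk8 (y axis, log scale) of the 7 genes in all 36 libraries, by group (x axis). Dots are libraries, WT in blue and FMR1 KO in red, and lines are means of 3. Vcp lies above its cofactors in every standard group, and the low nuclease RNA-seq groups spread widely.

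Occupancy compares pellet RPFs with RNA-seq and asks which mRNAs had more RPFs in the pellet for their level in the brain. The counts are not scaled for length, while RPFs fall mainly on coding sequence and RNA-seq reads on the whole transcript. A value therefore also carries the coding part of the transcript, such as 1470 of 10313 nt in Ubxn7 and 1113 of 1364 nt in Nsfl1c. The values do not rank the genes by ribosome load. In both genotypes and both preparations Faf1 was higher in the pellet relative to the other genes, though in the standard preparation its share of the counts was much the same in both. In WT, Faf1 had 76.19, 84.24 and 70.21 CPM in standard pellets and 74.72, 74.1 and 74.0 CPM in RNA-seq. In FMR1 KO the means were 71.4 and 73.2 CPM. These CPM values overlapped, and the fitted difference is set by TMM scaling, which takes most genes as not changed. Relative to that, Faf1 was higher in the pellet by 1.20 on the log2 scale in WT (SE 0.0955, adjusted p = 3.2e-05 in edgeR's quasi-likelihood test) and by 1.05 in FMR1 KO (SE 0.0909, adjusted p = 6.9e-05 in edgeR). In the low nuclease preparation it was higher by 1.46 in WT (SE 0.176, adjusted p = 5.8e-04 in edgeR) and 1.62 in FMR1 KO (SE 0.280, adjusted p = 0.00843 in edgeR).

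The ER adaptor Ubxn4 was higher in the standard pellet by 1.09 in WT (SE 0.146, adjusted p = 4.1e-04 in edgeR) and 1.00 in FMR1 KO (SE 0.0940, adjusted p = 9.9e-05 in edgeR). In the low nuclease preparation its values were 0.48 and 0.25, with adjusted p of 0.134 and 0.613 in edgeR. The other ER adaptor, Faf2, was higher in the standard pellet by 0.40 in WT (adjusted p = 0.0142) and 0.69 in FMR1 KO (adjusted p = 0.0106, both edgeR), with values of −0.044 and 0.017 in the low nuclease preparation. Nploc4 was higher by 0.41 in WT standard pellets (adjusted p = 0.00788 in edgeR), and by 0.65 and 0.78 in WT and FMR1 KO low nuclease pellets (adjusted p = 0.0138 and 0.0267 in edgeR). Its value in FMR1 KO standard pellets was 0.10 (adjusted p = 0.257 in edgeR). Nsfl1c did not pass in any of the 4 comparisons, with values of −0.036 and −0.092 in standard and −0.51 and −0.57 in low nuclease pellets. Ubxn7 was higher in WT low nuclease pellets by 0.74 (adjusted p = 0.0230 in edgeR), and its value was −0.094 in WT standard pellets. In FMR1 KO it was −0.21 in standard and 0.49 in low nuclease pellets (adjusted p = 0.130 and 0.158 in edgeR).

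Of the 6 cofactors, 4 were thus higher and 0 lower in WT standard pellets and 3 higher and 0 lower in FMR1 KO. Over all genes, 31.2% were called higher and 34.3% lower in WT, and 31.9% and 35.2% in FMR1 KO, so a call in either direction was common. In low nuclease pellets 3 cofactors were higher in WT, against a background of 24.9% higher and 27.6% lower, and 2 in FMR1 KO, against 16% and 12.8%. The median over the 6 cofactors was 0.40, 0.40, 0.57 and 0.37 in the 4 comparisons, beside −0.11, −0.069, −0.087 and −0.041 over all genes tested. The pellet and RNA libraries are shared between neither genotype nor preparation, while occupancy and enrichment share the pellet libraries.

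Vcp itself had a fitted occupancy of 0.45 (SE 0.130) in WT and 0.35 (SE 0.108) in FMR1 KO standard pellets, given as a description because these RPFs also gave the peaks for which it was chosen. In the low nuclease preparation it was −0.59 (SE 0.259, adjusted p = 0.0920 in edgeR) in WT and −0.22 (SE 0.330, adjusted p = 0.633 in edgeR) in FMR1 KO, neither past the threshold. Without the RNA-seq libraries dominated by 10 genes it was −0.38 in WT and −0.73 in FMR1 KO, where 1 RNA library remains and is assumed to vary like the rest (adjusted p = 0.198 and 0.0772 in edgeR). Set against the standard RNA-seq in place of the uneven one, it was 6.9e-04 in WT and 0.037 in FMR1 KO.

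The direction in standard pellets depended on the scaling. Under library size without Cdk8 in place of TMM the median gene moved to −1.26 in WT and −1.16 in FMR1 KO, 1416 genes were higher and 10937 lower in WT, and 1285 and 10028 in FMR1 KO. Then 0 of the 7 were higher, while 5 in WT and 4 in FMR1 KO were lower, and the value of Faf1 was 0.050 in WT and −0.037 in FMR1 KO. Relative to the median gene, Faf1 stood at 1.31 and 1.13 and Ubxn4 at 1.18 and 1.08. With the standard RNA-seq in place of the low nuclease one, Faf1 was at 0.80 and 0.93 in WT and FMR1 KO low nuclease pellets, Faf2 at 0.92 and 0.67 and Ubxn4 at 0.71 and 0.64, all past the threshold in edgeR. Then Nploc4 was at 0.22 and 0.18 and Ubxn7 at −0.13 and −0.25, past it in neither, and Nsfl1c was lower, at −0.58 and −0.53. Without the RNA-seq libraries dominated by 10 genes, Nploc4 was at 0.62 and 0.70 and Ubxn4 at 0.84 and 1.07 in WT and FMR1 KO, and Faf1 at 1.43 and Ubxn7 at 1.04 in WT. These, and Faf1 in FMR1 KO, had an adjusted p under 0.05 in edgeR. When each replicate number was left out, the standard calls of Faf1 and Ubxn4 held in 3 of 3 fits in both genotypes, those of Nploc4 and Faf2 in WT in 1 of 3 and that of Faf2 in FMR1 KO in 2 of 3. Of the low nuclease calls, Faf1 held in 3 of 3 in WT and 2 of 3 in FMR1 KO, Nploc4 in 1 of 3 and 0 of 3, and Ubxn7 in WT in 1 of 3.

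**Figure D5:**
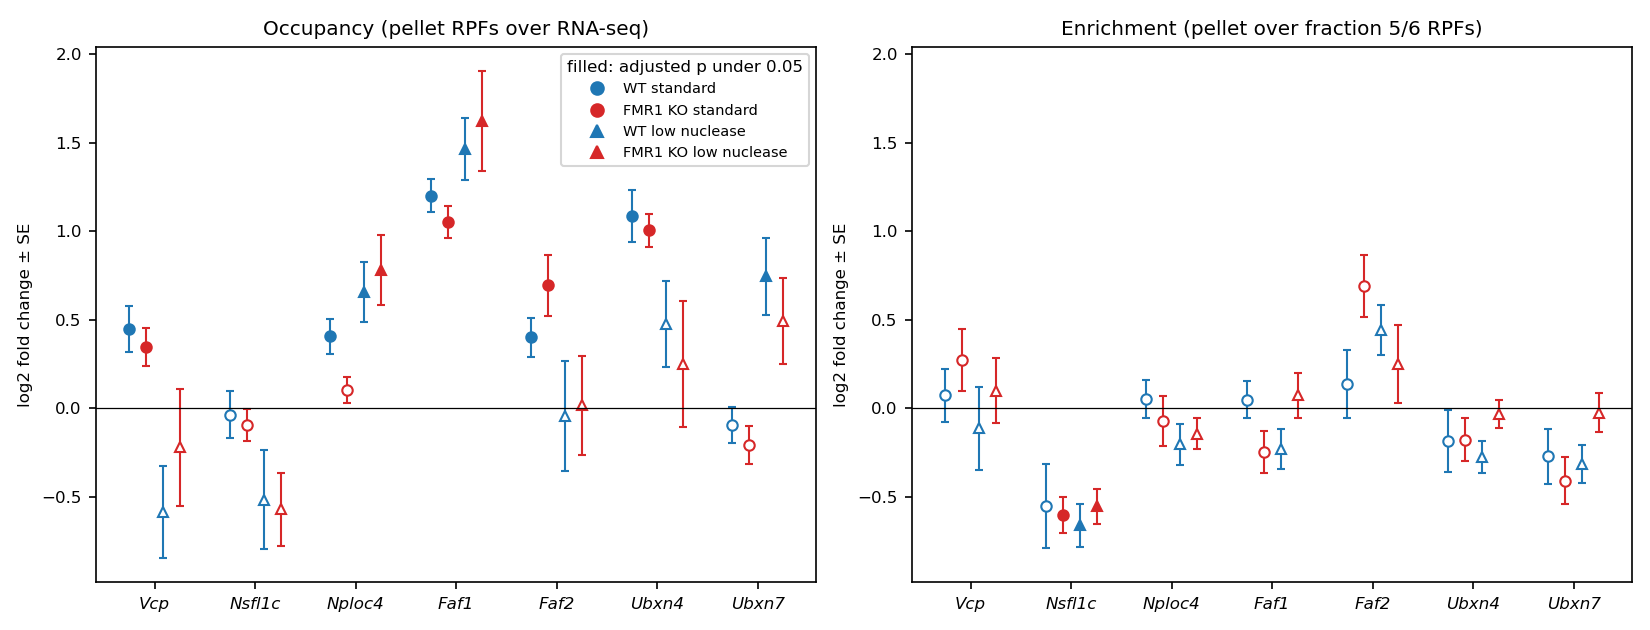
Fitted log2 difference (± SE) of pellet against RNA-seq (occupancy) and pellet against fraction 5/6 (enrichment) for the 7 genes in WT and FMR1 KO. Circles are the standard and triangles the low nuclease preparation, and filled symbols have an adjusted p under 0.05 in edgeR, where those of Vcp in standard pellets are a description. Faf1 is filled in all 4 occupancy comparisons and Nsfl1c lies below 0 in all 4 of enrichment.

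Enrichment compares the pellet with fraction 5/6, which both hold ribosome clusters, and asks which mRNAs differ between them. Nsfl1c, the p47 adaptor, was the one of the 7 that passed the threshold in edgeR, with less in the pellet. In FMR1 KO standard libraries it had 49.22, 34.86 and 49.34 CPM in the pellet and 62.51, 74.96 and 118.6 CPM in fraction 5/6. The groups did not overlap, and the pellet was lower by a log2 difference of −0.60 (SE 0.102, adjusted p = 0.0149 in edgeR). In the low nuclease preparation the WT pellet had 56.53, 55.35 and 45.51 CPM and fraction 5/6 80.71, 86.81 and 102.2 CPM (log2 difference −0.66, SE 0.122, adjusted p = 0.0179 in edgeR). FMR1 KO low nuclease pellets had 50.18, 53.21 and 48.36 CPM and fraction 5/6 88.26, 85.21 and 79.92 CPM (log2 difference −0.55, SE 0.101, adjusted p = 0.0199 in edgeR). In both the pellet lay wholly below fraction 5/6. In CPM this was not particular to Nsfl1c. It also held for Faf1 and Ubxn7 in FMR1 KO standard, for Nploc4, Faf1, Ubxn4 and Ubxn7 in WT low nuclease and for Nploc4, Ubxn4 and Ubxn7 in FMR1 KO low nuclease libraries. The share of all genes that separated in this way was not counted. Under library size without Cdk8 the median gene was itself below 0 in these comparisons, at −0.34, −0.14 and −0.22 in that order. Ubxn7 had 103.0 to 109.7 CPM in the WT low nuclease pellet and 138.7 to 146.9 CPM in fraction 5/6. After TMM scaling these cofactors did not pass, with adjusted p of 0.0709 to 0.898 in edgeR. In WT low nuclease libraries Ubxn7 was lower in DESeq2 (−0.30, adjusted p = 0.0407), and under library size Ubxn7 (−0.43, adjusted p = 0.0335 in edgeR) and Ubxn4 (−0.39, adjusted p = 0.0436 in edgeR) were. In FMR1 KO low nuclease libraries Nploc4 was lower under library size (−0.33, adjusted p = 0.0112 in edgeR).

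In WT standard libraries Nsfl1c had 48.41, 55.61 and 39.76 CPM in the pellet and 97.24, 60.39 and 51.0 CPM in fraction 5/6, with overlap through the library labelled replicate 3. The value was −0.55 (SE 0.236, adjusted p = 0.643 in edgeR), and without that library it was −0.77 (adjusted p = 0.0169 in edgeR). In that comparison 3 of all genes passed, 0.0153% higher and 0.00766% lower, with 801 at an unadjusted p under 0.05 in edgeR and 10 higher and 80 lower by DESeq2, and without that library 1029 were higher and 246 lower. None of the 7 passed in the full set in edgeR or DESeq2, nor at an unadjusted p under 0.05. The background in FMR1 KO standard was 9.11% higher and 2.41% lower, in WT low nuclease 14.3% and 8.6%, and in FMR1 KO low nuclease 8.82% and 11.8%. Each of the 3 Nsfl1c calls was lost when any 1 replicate number was left out, with the value staying between −0.77 and −0.49, and the call in FMR1 KO standard also under library size (−0.94, adjusted p = 0.231 in edgeR) and under the replicate block (−0.60, adjusted p = 0.0760 in edgeR). In most of these fits the calls over all genes fell as well. In FMR1 KO standard, 133 genes were higher and 0 lower without replicate 1 and 3 and 4 without replicate 3, though 1298 and 305 without replicate 2, against 1206 and 319 in the full set. In WT low nuclease libraries 140 to 690 were higher and 12 to 64 lower. In FMR1 KO low nuclease libraries 471 and 29 were called without replicate 1, 5 and 4 without replicate 2 and 0 and 0 without replicate 3, against 1372 and 1837 in the full set.

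No other cofactor passed in edgeR. Faf2 had positive values in all 4, at 0.14 and 0.69 in WT and FMR1 KO standard and 0.44 and 0.25 in low nuclease libraries, with adjusted p of 0.0522 to 0.795 in edgeR. In FMR1 KO standard libraries it was past the threshold in DESeq2 (0.70, adjusted p = 0.0230) and in edgeR with Cdk8 left out of the fit (0.74, adjusted p = 0.0452), and in WT low nuclease libraries in DESeq2 (0.45, adjusted p = 0.0283). With the replicate number as a block it was 0.44 in WT low nuclease libraries (adjusted p = 0.0462 in edgeR), where the numbers paired the libraries. The block gave −0.66 for Nsfl1c there (adjusted p = 0.0283 in edgeR), and 2943 of all genes were then higher and 2086 lower, against 2225 and 1339 without it. Ubxn7 had values of −0.27 and −0.41 in standard and −0.31 and −0.024 in low nuclease libraries. Vcp had 0.073 and 0.27 in standard and −0.11 and 0.099 in low nuclease libraries, the last pair with adjusted p of 0.743 and 0.736 in edgeR.

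None of the 7 genes differed between FMR1 KO and WT by edgeR in RNA-seq, pellet abundance, occupancy or enrichment of the standard preparation, or in pellet abundance of the low nuclease preparation, and none by DESeq2. The background was 0.0736% of genes in RNA-seq, 0.015% in pellet abundance, 0.0673% in occupancy, 0% in enrichment and 0.0197% in low nuclease pellet abundance. At an unadjusted p under 0.05 there were 0, 1, 1, 1 and 0 of the 7 in that order, against 421, 707, 1008, 770 and 659 of all genes. DESeq2 called 12 genes higher and 12 lower in RNA-seq, 46 and 20 in pellet abundance, 36 and 27 in occupancy, 38 and 3 in enrichment and 56 and 32 in low nuclease pellet abundance.

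For Vcp the FMR1 KO minus WT difference was 0.026 in RNA-seq (SE 0.107), −0.018 in pellet abundance (SE 0.114), −0.063 in occupancy (SE 0.154) and 0.23 in enrichment (SE 0.219). The enrichment fit counts the fraction 5/6 library with little Fmr1 as WT. Without that library 0 of all genes were higher and 0 lower, and the median gene moved from 0.031 to −0.044. The 3 unadjusted ones were Faf2 in pellet abundance (0.43, SE 0.172, adjusted p = 0.867 in edgeR), Nploc4 in occupancy (−0.27, SE 0.109, adjusted p = 0.770 in edgeR) and Faf2 in enrichment (0.59, SE 0.265, adjusted p = 0.883 in edgeR). Faf2 had 11.84 to 12.68 CPM in WT and 14.74 to 16.93 CPM in FMR1 KO standard pellets, without overlap, while in low nuclease pellets the groups overlapped (23.52 to 31.07 and 18.12 to 29.94 CPM) and the difference was −0.11 (SE 0.176).

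A wider list of 31 genes that work with Vcp (its other UBX adaptors, ER degradation and ribosome-associated quality control) went in both directions. In occupancy, 10 were higher and 13 lower in WT standard, 11 and 11 in FMR1 KO standard, 8 and 9 in WT low nuclease and 7 and 4 in FMR1 KO low nuclease pellets. Over all genes the shares called higher and lower were 31.2% and 34.3%, 31.9% and 35.2%, 24.9% and 27.6%, and 16% and 12.8%. Their median was −0.083, −0.043, −0.066 and −0.061, close to that of all genes. In genotype comparisons 0 of 31 passed in edgeR, with 2, 1, 1, 1 and 2 at an unadjusted p under 0.05 in the order above, beside 421, 707, 1008, 770 and 659 of all genes. In enrichment 0 of 30 tested passed in WT standard in edgeR, with 0 at an unadjusted p under 0.05, and 3 were higher and 1 lower in FMR1 KO standard, 6 and 6 in WT low nuclease and 2 and 3 in FMR1 KO low nuclease libraries, beside the backgrounds of 9.11% and 2.41%, 14.3% and 8.6%, and 8.82% and 11.8% given above. These counts depended on single libraries. Without replicate 2, 0 of the 31 and 0 of all genes were called in FMR1 KO low nuclease occupancy, while 7 were higher without replicate 1 or 3. With the standard RNA-seq in place of the low nuclease one, 14 were higher and 13 lower in WT and 12 and 13 in FMR1 KO low nuclease pellets. Of all genes 5044 were then higher and 5451 lower in WT, and 4439 and 5559 in FMR1 KO. In enrichment 0 of the 31 were called in FMR1 KO standard without replicate 1 or 3 and in FMR1 KO low nuclease libraries without replicate 2 or 3, and 1 to 2 were higher and 0 lower in WT low nuclease libraries without any 1 replicate number. With the replicate number as a block, 7 of the list were higher and 6 lower in WT low nuclease enrichment, beside 2943 and 2086 of all genes. Under library size the list had 3 higher and 21 lower in WT and 2 and 18 in FMR1 KO standard occupancy, 1 and 0 in WT and 0 and 0 in FMR1 KO low nuclease occupancy, and 0 and 0 in FMR1 KO standard enrichment. In low nuclease enrichment it then had 4 and 7 in WT and 2 and 8 in FMR1 KO, beside 1577 and 1923 and 1150 and 4250 of all genes.

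Ltn1, the ubiquitin ligase that marks the unfinished chain on a stalled ribosome for Vcp, was higher in all 4 occupancy comparisons, by 2.36 and 2.06 in WT and FMR1 KO standard and 1.87 and 2.32 in low nuclease pellets. It was also higher in the pellet than in fraction 5/6 in FMR1 KO standard (1.72, SE 0.202, adjusted p = 0.00457 in edgeR), WT low nuclease (2.25, SE 0.304) and FMR1 KO low nuclease libraries (1.97, SE 0.148). In WT standard libraries Ltn1 was at 1.105 (SE 0.559, adjusted p = 0.643 in edgeR), not past the threshold. Nemf, which recruits Ltn1 to the ribosome, was higher in the pellet than in fraction 5/6 by 1.09 and 0.99 in FMR1 KO standard and low nuclease libraries and by 0.64 in WT low nuclease libraries (adjusted p = 0.00457, 0.0135 and 0.0341 in edgeR). In WT standard libraries Nemf was at 0.67 (SE 0.309, adjusted p = 0.643 in edgeR), not past the threshold. Ufd1, the partner of Nploc4, was higher in occupancy by 1.62 and 1.50 in standard and 1.47 and 1.53 in low nuclease pellets, and lower in enrichment in WT low nuclease libraries (−0.63, adjusted p = 0.0405 in edgeR). Rhbdd1, Ube4b and Vcpip1 were also higher in all 4 occupancy comparisons. Rhbdd1, an ER rhomboid protease, was at 1.39 and 2.41 in WT and FMR1 KO standard and 2.67 and 3.42 in low nuclease pellets. Ube4b, a ubiquitin ligase, was at 1.35 and 1.10 in standard and 5.67 and 4.24 in low nuclease pellets (SE 0.702 and 0.414 in the latter). Its low nuclease values were uneven, with an enrichment of 2.14 (SE 1.12) in WT and −0.64 (SE 0.602) in FMR1 KO, past the threshold in neither. Vcpip1, a deubiquitinase, was at 1.46 and 1.29 in standard and at 1.08 and 1.07 in low nuclease pellets. The occupancy calls of Ltn1, Ufd1, Rhbdd1, Ube4b and Vcpip1 held in 3 of 3 fits with a replicate number left out in both standard comparisons and in WT low nuclease pellets, and in 2 of 3 in FMR1 KO low nuclease pellets. The enrichment calls of Ltn1 held in 1 of 3 in each comparison, with values of 1.56 to 2.64, those of Nemf in 1 of 3 in both FMR1 KO comparisons and 0 of 3 in WT low nuclease libraries, and that of Ufd1 in 0 of 3.

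Other genes of the list had lower occupancy, among them some UBX adaptors. Ubxn11 was lower in all 4 comparisons, by −4.08 and −4.19 in WT and FMR1 KO standard and −2.25 and −1.85 in low nuclease pellets, and so was Ubxn8, by −3.44 and −3.03 and by −1.31 and −1.41. With a replicate number left out, their calls in FMR1 KO low nuclease pellets held in 2 of 3 and 0 of 3 fits. Ubxn2a was at −2.93 and −3.28 in standard pellets, with −0.45 and −0.88 in WT and FMR1 KO low nuclease pellets, past the threshold in neither. Ubxn1 was at −0.97 and −1.41 in low nuclease pellets, with −0.083 and −0.0045 in standard pellets, past the threshold in neither. Svip, a small inhibitor of ER degradation, was at −2.87 and −3.03 in standard and −1.26 in WT low nuclease pellets, with −0.94 and not past the threshold in FMR1 KO, and Derl1, of the ER degradation machinery, at −0.79 and −1.65 in WT standard and low nuclease pellets, with 1.08 (SE 0.797) and −1.53 in FMR1 KO, past the threshold in neither. In enrichment, the ER ligase complex members Syvn1 and Sel1l were higher in WT low nuclease libraries (2.18 and 1.26), as was Derl1 (0.80). Lower there were Aspscr1 (−0.48 in FMR1 KO standard), Ubxn2a and Vcpkmt (−5.56, SE 1.49, and −0.56 in WT low nuclease, with Ubxn2a at −0.24 and not past the threshold in FMR1 KO low nuclease) and Ubxn1, Zfand2b and Ubxn6 (−0.67, −0.64 and −0.57 in FMR1 KO low nuclease), with Ubxn1 also at −0.46 in WT low nuclease libraries. Apart from those given as not past the threshold, all had an adjusted p under 0.05 in edgeR in the full set. The lower calls in enrichment held in 0 of 3 fits with a replicate number left out.

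Over the 18 standard libraries, the genes whose log2 CPM followed Vcp most closely among 15892 were 1700022I11Rik (Pearson's r = 0.984), Noc2l (0.962), Bcl6 (0.946), Hectd3 (0.943) and Ptk2b (0.943). The libraries are of 2 kinds, RPF and RNA-seq, and share their depth and scaling, so these values are a description. The exons of 1700022I11Rik lie on the opposite strand over 352 nt of Vcp exons 13 and 14, where 3 of the 9 shared Vcp sites fall. Its counts were 50.4 to 59.5% of those of Vcp in standard RPF libraries and 45.3 to 47.6% in standard RNA-seq. Whether strand was used in counting is not given in the sources used here, and without it reads from the pair cannot be told apart. Among the cofactors, r with Vcp was 0.748 for Faf1, 0.738 for Ubxn4, 0.734 for Nploc4, 0.675 for Faf2, 0.134 for Nsfl1c and −0.0664 for Ubxn7.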

How the data were processed

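RPFs and RNA-seq of 36 libraries were analysed. The authors trimmed reads (Cutadapt 2.10), removed non-coding RNA (Bowtie2 2.3.5), aligned to GRCm38 (STAR 2.7.8a), removed duplicates (Picard, SAMtools 1.19.2) and deposited raw counts per gene (featureCounts 2.2.0). Their deposited peaks, in 12 standard libraries on Ensembl transcripts, carry heights as read counts that are not scaled. The study's methods ask for a zenith 4 times the average of the transcript, and whether the deposited peaks were held to that is not stated.

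Counts of protein-coding genes (GENCODE M21 biotypes) were filtered with filterByExpr, scaled by TMM and tested with edgeR 4.0.16 (quasi-likelihood, R 4.3.3), with Benjamini-Hochberg adjustment over all genes tested and a threshold of 0.05. Peak height profiles used limma 3.58.1. DESeq2 1.42.0, library size, no filter, no Cdk8, the replicate block and leaving out libraries were alternatives. Log CPM used a prior count of 2. The procedure was tested on simulated data. Sites and windows used Python 3.11.15 and the GRCm38 genome.

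The members and lists were chosen with earlier results of these data known. Named were the 7 members, up to 3 called genes of the 31-gene list per direction and comparison, the 5 genes most like Vcp, and mRNAs with as many shared sites. Hspa8, Eef1a1, and sites outside the 9 were added after their values were seen.

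Same-numbered libraries correlated over 0.1 in every pair only for WT low nuclease enrichment (r = 0.188, 0.119 and 0.21). There the fit with the replicate block is given beside the main fit, which has no block, for Nsfl1c, Faf2, the 31-gene list and all genes. Precision is limited by 3 libraries per group. Some results on 1 gene of the 31-gene list and on 1 Vcp site are not reported here.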

Additional observations from a re-analysis of the deposited data

How the results depend on the processing

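Library size without Cdk8 in place of TMM moved the median gene far below 0 in standard occupancy. There it gave −0.711 for Vcp, −0.747 for Nploc4, −0.757 for Faf2 and −0.0773 for Ubxn4 in WT, and −0.746 for Vcp, −0.0373 for Faf1, −0.448 for Faf2 and −0.085 for Ubxn4 in FMR1 KO. The members called higher and lower became 0 and 5 in WT and 0 and 4 in FMR1 KO. Under it the count was also 0 lower in FMR1 KO standard enrichment, 0 higher in WT and in FMR1 KO low nuclease occupancy, and 3 and 2 lower in WT and FMR1 KO low nuclease enrichment. DESeq2 called 1 higher in FMR1 KO standard enrichment (Faf2), 1 lower in FMR1 KO low nuclease occupancy, and 1 higher and 2 lower in WT low nuclease enrichment. With Cdk8 left out, 1 was higher in FMR1 KO standard enrichment (Faf2).

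With the replicate block, 0 were lower in FMR1 KO standard enrichment (Nsfl1c −0.602, adjusted p = 0.076 in edgeR), 1 was higher in FMR1 KO low nuclease occupancy and 1 in WT low nuclease enrichment. The numbers paired the libraries only in WT low nuclease enrichment, and correlations of same-numbered libraries elsewhere ran from −0.124 to 0.361.

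Leaving out each replicate number gave 2 to 4 members higher in WT and in FMR1 KO standard occupancy, 1 to 4 in WT and 0 to 1 in FMR1 KO low nuclease occupancy, 0 to 1 lower in WT standard enrichment, and 0 to 0 lower in the other 3 enrichment comparisons. Of the occupancy calls, those of Faf1 and Ubxn4 in standard pellets held in 3 of 3 such fits. Without the library labelled WT fraction 5/6 replicate 3, 1 member was lower in WT standard enrichment.

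With standard RNA-seq in place of the low nuclease one, an alternative chosen after seeing the data, 1 member was lower in each genotype (Nsfl1c) and Ubxn7 reversed to −0.128 in WT. With zeniths within 3 nt, Vcp had 3 sites in all fraction 5/6 libraries and 3 in all 12. Genotype sites called in the height profile ran from 0 to 5 over the replicates left out, none on Vcp. Apart from what is stated, the cause of these changes was not tested. Of the 7 members Faf2 had the fewest counts, with 62 in its lowest standard RPF library.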
